A study of Homo sapiens with 14 samples.

Results

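The TGF-beta ligands and receptors studied here were 10 protein-coding genes: TGFB1, TGFB2 and TGFB3, TGFBR1, TGFBR2, TGFBR3, ACVRL1 and ENG, and LTBP1 and LTBP2. They were chosen by name, and a peak was counted for a gene where it shared at least 1 bp with the gene body plus 20 kb on each side (the gene window) in hg19. They make up 10 of the 20136 protein-coding gene windows examined. Peaks came from CUT&Tag, in which an antibody tethers a transposase to its target and the released DNA fragments are sequenced, in LX-2, a human line of immortalised hepatic stellate cells (wild type). Culture on either a soft or a stiff matrix lasted 2 days, and each matrix had 2 libraries for phosphorylated JUN (p-JUN), 2 for H3K4me3, 2 for H3K27me3 and 1 merged list for H3K27ac. The stiff p-JUN libraries carried TCP in their titles, the study's abbreviation for culture plastic, where the stiff histone libraries carried 40K, so plastic and stiff hydrogel cannot be told apart in the p-JUN contrast. All libraries came from a single cell line, and a p-value measures only the spread between these libraries.

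TGF-beta is secreted as an inactive complex. The mature ligand stays bound to its own propeptide, and latent TGF-beta binding proteins of the LTBP family anchor that complex in the extracellular matrix, where integrins that pull on it can release the ligand. The free ligand binds TGFBR2, which recruits and phosphorylates TGFBR1, and TGFBR1 phosphorylates the SMAD proteins that enter the nucleus. TGFBR3 (betaglycan) and ENG (endoglin) are co-receptors that present ligand, and ACVRL1 (ALK1) is a type I receptor known mainly from endothelial cells. In the liver this pathway is known as a main driver of stellate cell activation. JUN is a subunit of AP-1, a dimeric factor that recognises the palindrome-like motif TGACTCA or TGAGTCA, the reverse complement of each other. H3K4me3 marks active or poised promoters, H3K27ac marks active promoters and enhancers, and H3K27me3 marks genes held silent by Polycomb.

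The p-JUN lists held 48163 to 54168 peaks, the H3K4me3 lists 18096 to 18857, the H3K27ac lists 18238 (soft) and 13322 (stiff), and the H3K27me3 lists 6974 to 19843. Median fragments at a peak summit were 60 to 64 for p-JUN and 120 to 207 for H3K4me3, against 27 (soft) and 26 (stiff) for H3K27ac. The labelled cell type was checked by H3K4me3 within 1 kb of start sites. Of 8 stellate cell or myofibroblast markers, 5 carried it in all 4 libraries (ACTA2, COL1A1, PDGFRB, TAGLN and VIM). COL3A1 carried it in 1 library, and COL1A2 and DES in none. None of 5 hepatocyte markers had it in all 4 libraries. It was there for 1 of 4 endothelial (KDR), 1 of 5 macrophage or leukocyte (CD14) and 2 of 4 cholangiocyte markers (EPCAM and SOX9). Genome-wide 62.8% of promoters carried it in all 4 libraries. The 5 of 8 is close to that share, so the check does not set the stellate cell markers apart.

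DNA around 5 p-JUN summits at these genes is given first. They were chosen because a motif lies within the bases printed, so they do not show how often one occurs. Each run is 61 bases of the GRCh37 plus strand, read 5′ to 3′, with the summit at its centre. Capitals mark the AP-1 motif in the first 4. In the last they mark CATTCC, the reverse complement of GGAATG, a core motif of TEAD factors. The TGFB2 sites are the strongest p-JUN region of that gene and its only one called in both libraries of one matrix and in neither of the other, and the other 3 sites differed between matrices by fragment counts, as described below. The last was added for that reason after its values were seen, since it holds no AP-1 motif within 50 bp.
TGFB2, 32.1 kb into the gene, chr1:218550743-218550803: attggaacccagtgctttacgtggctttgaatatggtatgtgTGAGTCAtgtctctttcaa
TGFB2, 39.5 kb into the gene, chr1:218558118-218558178: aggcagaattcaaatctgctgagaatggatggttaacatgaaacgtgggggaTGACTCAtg
TGFBR3, 153 kb into the gene, chr1:92198196-92198256: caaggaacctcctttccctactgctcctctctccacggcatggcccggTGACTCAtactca
LTBP1, 123 kb into the gene, chr2:33295087-33295147: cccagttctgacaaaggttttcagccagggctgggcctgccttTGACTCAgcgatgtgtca
TGFBR3, 145 kb into the gene, chr1:92207010-92207070: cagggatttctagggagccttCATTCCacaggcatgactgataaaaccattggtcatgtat

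All 5 sites lie in introns. The motif centre was 15 bp from the summit at the first site, 25 bp at the second, 21 bp at the third and 16 bp at the fourth. Over all 79 p-JUN regions in the windows, where a region is the merged span of overlapping peaks of the 4 libraries, 24 held the AP-1 motif within 50 bp of the summit, or 30.4% (95% Wilson interval 21.3% to 41.2%, counting error only). Over all 61411 p-JUN regions the share was 30.5%. At positions shifted by 1 kb the share was 1.70% genome-wide and 0 of 79 in these windows. Within these windows 2 of 16 summits within 1 kb of a coding start site held the motif, against 22 of 63 elsewhere (34.9%). The genome-wide shares were 8.14% and 35.2%. LTBP1 had 7 motif-bearing regions of 15, TGFBR2 had 5 of 9, TGFB2 had 4 of 13 and LTBP2 had 4 of 11. ENG had none in 4 regions. Among the strongest regions of the genes, described below, those of TGFB1, TGFB2 and LTBP1 held the motif within 50 bp of the summit. Those of TGFBR1, TGFBR2, TGFBR3, ENG and LTBP2 did not. The motif GGAATG or CATTCC lay within 50 bp of 8 of the 79 summits (10.1%), against 9.60% of all p-JUN regions.

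Among the ligands, TGFB2 carried the most p-JUN peaks. TGFB2, a ligand isoform whose complex is held in the matrix like the others, lies at chr1:218518678-218617961. Its window held 9 and 9 soft against 8 and 11 stiff p-JUN peaks. TGFB1, the isoform best known from liver fibrosis, lies at chr19:41807492-41859827 and held 5 and 7 soft against 5 and 7 stiff peaks. TGFB3, at chr14:76424440-76449354, held 1 and 0 against 0 and 0, and that single peak lay at the promoter of the neighbouring gene IFT43. The matrices overlapped at all 3 ligands.

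The H3K4me3 counts of the ligands were as even. TGFB1 held 4 peaks in each of the 4 libraries, TGFB3 held 2 in each, and TGFB2 held 2 and 1 soft against 2 and 2 stiff peaks. Their promoters carried H3K4me3 in all 4 libraries. Of the 4 TGFB1 peaks, 1 reached the TGFB1 promoter, 1 lay in an intron, and the other 2 lay at the promoters of CCDC97 and of B9D2 and TMEM91. The p-JUN antibody gave a promoter peak in all 4 libraries at TGFB2, in 1 soft library at TGFB1 and in no library at TGFB3.

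The strongest p-JUN region of TGFB1, by mean −log10 q among those called in all 4 libraries, lay 30.2 kb into the gene. Its summit fold, the authors' ratio of summit signal to that expected nearby, was 4.84 and 5.76 (soft) and 5.52 and 6.24 (stiff). That of TGFB2 lay 32.1 kb into the gene, with 9.99 and 10.02 (soft) and 9.70 and 10.07 (stiff). The values of the matrices overlapped at both regions. The TGFB2 region 39.5 kb into the gene had a fold of 6.23 and 5.65 on soft and was called in neither stiff library.

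Among the receptors, TGFBR1, the type I receptor kinase, lies at chr9:101866320-101916474 and held 5 and 4 soft against 4 and 5 stiff p-JUN peaks. TGFBR2, the type II receptor that binds the ligand first, lies at chr3:30648093-30735634 and held 9 in each of the 4 libraries. The co-receptor TGFBR3 (chr1:92145900-92371892) held 12 and 9 soft against 9 and 13 stiff peaks, and ENG (chr9:130577292-130616937) held 3 and 3 against 3 and 4. The matrices overlapped at each of these receptors.

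ACVRL1 (chr12:52300692-52317145) stood apart from the other receptors, with no peak of any of the 14 lists in its window. The same was true of 938 of the 20136 windows (4.66%). A gene absent from a peak list was not called there, which does not show that the mark was missing. Its co-receptor ENG, which acts with ACVRL1 in endothelial cells, had H3K4me3, H3K27ac and p-JUN peaks at its promoter in every list of those marks.

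H3K4me3 and p-JUN marked the other 4 receptor promoters in all 4 libraries of each mark. Genome-wide this held for 62.8% of 19794 promoters for H3K4me3 and 38.2% for p-JUN. Among the 12431 promoters with H3K4me3 in all 4 libraries, 57.4% had p-JUN in all 4, as did 6 of the 9 such promoters of the 10 genes. H3K4me3 counts in the windows were 2 in each library at TGFBR1, 1 in each at TGFBR3, 3 in each at ENG and 1, 1, 1 and 2 at TGFBR2. At the TGFBR2 start site the p-JUN summit fold was 11.3 and 12.3 (soft) and 10.8 and 13.8 (stiff), and an AP-1 motif lay 14 bp from the summit. This was 1 of only 2 motif-bearing p-JUN summits within 1 kb of a coding start site in these windows. The other lay at an annotated internal start site of LTBP1, 329 kb into the gene, in a region that no H3K4me3 peak overlapped.

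The strongest receptor p-JUN regions lay inside the genes, except at TGFBR1. That of TGFBR2 was 53.0 kb into the gene, with a fold of 11.5 and 11.9 on soft and 12.1 and 12.5 on stiff. That of ENG was 16.0 kb in, with 13.1 and 12.8 against 12.6 and 14.1. The TGFBR1 region was the promoter itself, with 9.69 and 9.49 against 8.85 and 9.82. The TGFBR3 region was 145 kb in, with 8.05 and 7.07 against 8.99 and 9.78. These folds were not scaled between libraries, whose median folds over regions called in all 4 were 8.72 and 8.66 (soft) and 8.57 and 9.37 (stiff). In the fit described below, each library was centred on its median. The log2 difference, stiff minus soft, was then 0.03 ± 0.09 (SE) at TGFBR2 and 0.00 ± 0.08 at ENG. It was −0.08 ± 0.10 at TGFBR1 and 0.27 ± 0.12 at TGFBR3, and none of the 4 passed. On soft, the TGFBR3 region 81.5 kb in had the higher −log10 q (90.4 and 67.8, against 62.1 and 47.5 at 145 kb). On stiff its values were 64.7 and 78.9, against 85.3 and 124 at 145 kb. The region at 145 kb was thus picked through its stiff values, and its fold difference is not separate evidence.

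The latent TGF-beta binding proteins are the matrix anchors of the pathway, although LTBP2, unlike LTBP1, is not known to bind the latent ligand. LTBP1 (chr2:33172020-33624576) held 12 and 12 soft against 13 and 14 stiff p-JUN peaks. LTBP2 (chr14:74964886-75079081) held 11 and 10 against 10 and 11. LTBP1 was the only 1 of the 10 genes whose matrices did not overlap. Genome-wide both stiff libraries lay above both soft ones in 5.55% of 16833 windows with a p-JUN peak, and below them in 4.56%, so 1 gene among the 9 with a peak is read as no more than that background. The two-sided exact permutation p for LTBP1 was 0.33, the smallest that 2 libraries against 2 allow, and at a −log10 q of at least 10 its counts overlapped.

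Per length, LTBP1 was not rich in p-JUN peaks. It held 2.59 peaks per 100 kb of window over the 4 libraries, against a median of 2.99 over windows with a peak. TGFBR2 held 7.06, LTBP2 6.81, TGFB2 6.64 and TGFB1 6.50, between the 89.4th and the 91.8th percentile of all windows. This base includes windows without a p-JUN peak. On it TGFBR1 lay at percentile 80.4, ENG at 71.2, TGFBR3 at 70.9, LTBP1 at 53.0 and TGFB3 at 18.3, and ACVRL1 had no peak. The strongest LTBP1 region, at its internal start site 329 kb in, had folds of 19.929 and 19.999 (soft) against 19.449 and 20.571 (stiff). These exceeded the folds of the strongest regions of the other genes. No H3K4me3 peak overlapped this LTBP1 region in any of the 4 libraries. The strongest LTBP2 region lay upstream, at −7.65 kb from its start site, with 5.48 and 5.14 against 4.83 and 5.91. At both the matrices overlapped.

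H3K4me3 at the binding proteins was 2 peaks in each library for LTBP1 and 2, 3, 3 and 3 for LTBP2. No gene of the 10 had H3K4me3 counts that did not overlap. Genome-wide the stiff libraries lay above in 2.59% and below in 2.31% of 15770 windows. Summed over the 10 genes, p-JUN gave 67 and 63 soft against 61 and 74 stiff peaks, and H3K4me3 gave 19 and 19 against 20 and 21. The log2 ratio of the stiff to the soft mean was 0.05 for p-JUN, less than the spread between the stiff libraries. For H3K4me3 it was 0.11, with both stiff libraries above both soft ones by 1 or 2 peaks.

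**Figure D1:**
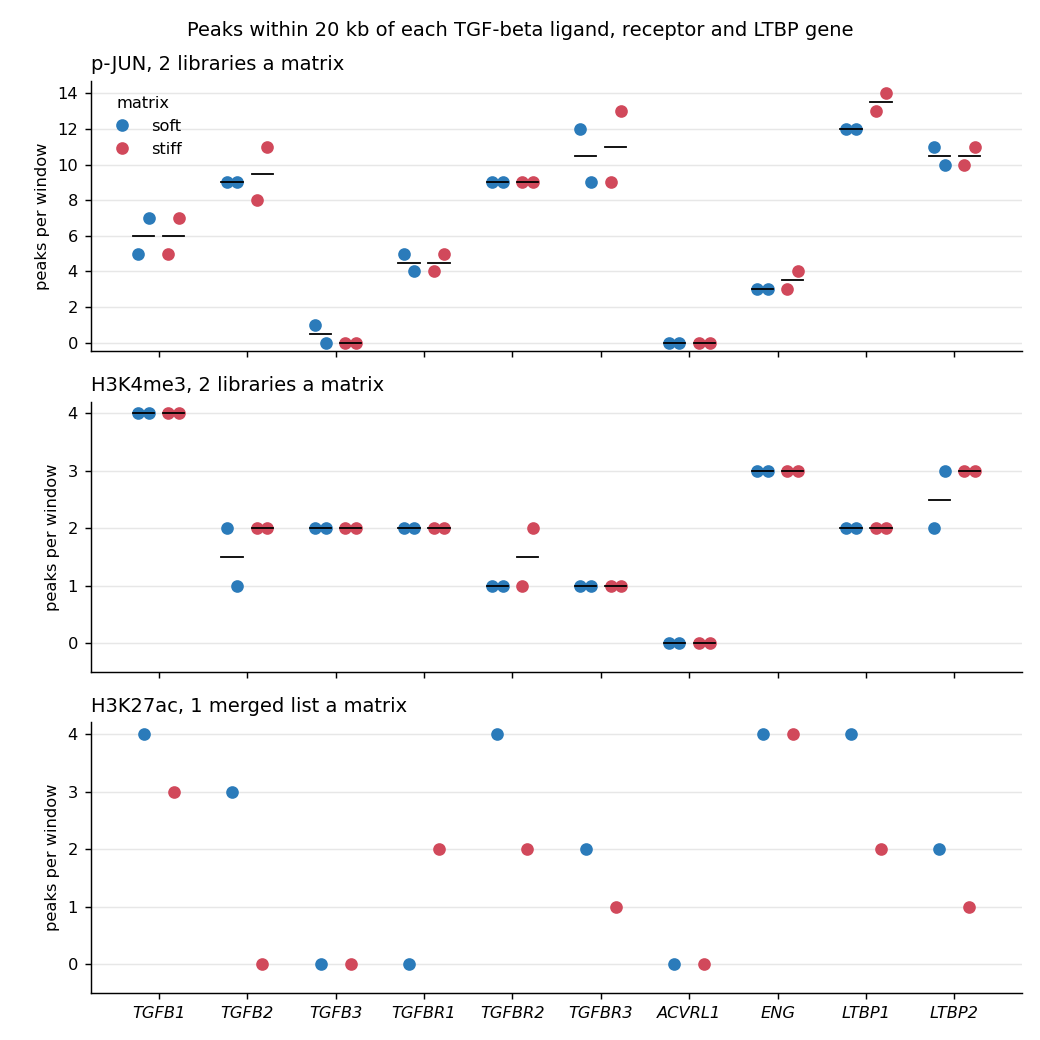
Peaks per gene window (vertical axis, number of peaks) for the 10 genes, with 1 point per library or merged list (blue soft, red stiff) and a black line at the mean of 2 libraries. The p-JUN and H3K4me3 points of the matrices overlap except for p-JUN at LTBP1 (12 and 12 against 13 and 14), while H3K27ac is 3 against 0 at TGFB2 and 0 against 2 at TGFBR1.

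H3K27me3 was not called in any of these windows. None of the 10 genes had a broad peak in any of the 4 libraries. Of the 20136 windows, 34.6% had one in at least 1 library and 10.6% in all 4. The list of soft replicate 1 was the longest, with 19843 peaks against 9228 in soft replicate 2 and 7104 and 6974 on stiff. With 50 kb on each side the covered length summed over the genes was 0.445 and 0.403 kb on soft and 0 and 0.647 kb on stiff.

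To explore where calls differed between matrices, the p-JUN regions were classed by library. Of 79 regions, 56 were called in all 4 libraries, 1 in both soft libraries alone and none in both stiff libraries alone. The other 22 were mixed, and 12 of these were called in a single library, 4 of them in a soft and 8 in a stiff one. At TGFB2, 4 regions were called in a single stiff library (35.2, 52.8, 53.6 and 64.7 kb into the gene). Of the 8 single-library stiff calls, all but the TGFB2 region at 53.6 kb came from stiff replicate 2. That library had the longest p-JUN list (54168 peaks), so these calls are not read as a difference between matrices. Mixed regions made up 27.8% in these windows and 29.7% of all p-JUN regions. Over all 61411 p-JUN regions 1.74% were soft-only and 2.75% stiff-only. The region called in both soft libraries alone was the TGFB2 intron site 39.5 kb into the gene, printed above, which held 64 and 48 fragments at its soft summits. Leaving out 1 library moved these counts widely, since 1 library then stands for its matrix. Without stiff replicate 1, 7 regions were called on stiff alone. Without soft replicate 1, 4 were called on soft alone and 3 on stiff alone, and without stiff replicate 2 it was 3 and 1. Without soft replicate 2 it was 2 and 1. H3K4me3 gave 22 regions, 18 of them in every library and 4 mixed. Of the mixed ones, 2 were called in a single stiff library (TGFBR2 at 52.7 kb and LTBP2 at −7.92 kb). Both were called in stiff replicate 2, the H3K4me3 library with the highest median of summit fragments (207). No H3K4me3 region was called in both libraries of one matrix alone, against 1.77% stiff-only and 1.25% soft-only of 20393 regions.

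H3K27ac, with 1 merged list per matrix, gave 23 peaks in the soft and 15 in the stiff list over the 10 windows. The log2 ratio was −0.62 with an exact binomial 95% interval of −1.66 to 0.38, which covers counting error only. TGFBR1 was the only gene with more peaks in the stiff list (0 soft, 2 stiff). TGFB2 had 3 soft and no stiff peaks, TGFBR2 had 4 and 2, LTBP1 4 and 2, TGFB1 4 and 3, TGFBR3 2 and 1, LTBP2 2 and 1, and ENG 4 and 4. TGFB3 had none. Genome-wide the soft list, which is also the longer one, had more peaks in 46.0% of 12584 windows with H3K27ac and the stiff list in 11.6%. With both lists cut to equal length the totals were 16 and 15. TGFBR1 stayed higher in the stiff list and TGFB2, LTBP1 and LTBP2 in the soft list, while ENG then had more peaks in the stiff list.

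By region, 13 of 25 H3K27ac regions were in both lists, 10 in the soft list alone and 2 in the stiff list alone, against 35.0% soft-only and 10.9% stiff-only of 20403 regions. With both lists cut to equal length, 5 regions were soft-only and 4 stiff-only. The regions named below are those of the full lists. In the full lists the 2 stiff-only regions flanked the TGFBR1 start site, at −0.428 and 0.623 kb from it. They had a fold of 5.74 with 20 fragments and of 6.16 with 22 fragments, and −log10 q values of 8.79 and 10.3, where no peak of the list was under 5.02. The H3K4me3 regions at the same places were called in all 4 libraries. At TGFB2 all 3 H3K27ac regions were soft-only: the promoter at a fold of 6.40 with 29 fragments, the intron 32.0 kb in at 5.53 with 23 fragments, and a site 118 kb from the start site at 5.39 with 29 fragments. Each overlapped p-JUN regions called on both matrices.

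The other soft-only H3K27ac regions were single or paired. LTBP1 had 2, at 123 kb with a fold of 8.35 and at 417 kb with 6.60. TGFBR2 had 2, at 75.2 kb with 6.55 and at 51.8 kb with 5.48. TGFBR3 had 1 at 41.1 kb (6.75), LTBP2 had 1 at 40.1 kb (4.57), and TGFB1 had 1 at the CCDC97 promoter (5.83). Where both lists had a value, the log2 ratio of stiff to soft fold, centred on the median of 11044 shared regions, ranged from −0.37 at LTBP1 212 kb into the gene to 0.46 at ENG 9.44 kb in. The central 95% of shared regions ran from −0.49 to 0.50, so none of the 13 lay outside it. There was 1 list per matrix and no test.

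**Figure D2:**
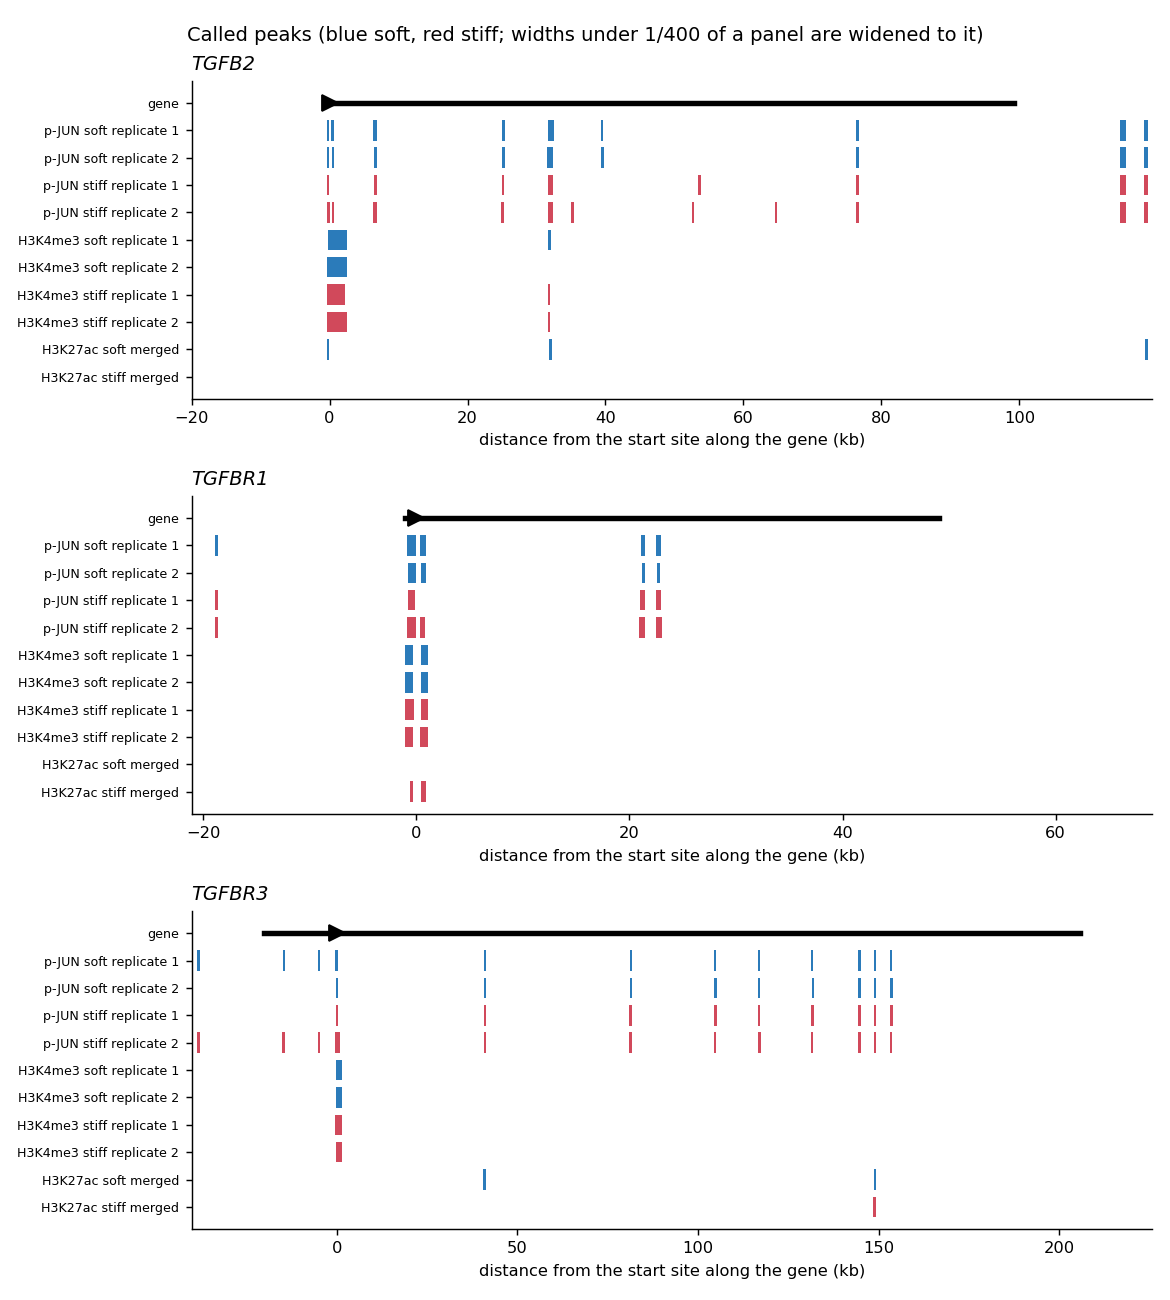
Called peaks at TGFB2, TGFBR1 and TGFBR3 by distance from the start site along the gene (horizontal axis, kb), with 1 row per library or merged list (blue soft, red stiff) and the gene as a black line. H3K27ac lies at the TGFB2 promoter only in the soft list and at the TGFBR1 promoter only in the stiff list, while the H3K4me3 promoter peaks are in all 4 libraries.

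The overlap of p-JUN with the other marks was that of p-JUN regions in general. Of the 79 regions, 12 overlapped H3K27ac in both lists (15.2%, against 17.2% of all p-JUN regions), 8 in the soft list alone (10.1%, against 9.64%) and 2 in the stiff list alone (2.53%, against 2.88%). The latter were both at TGFBR1. H3K4me3 in all 4 libraries overlapped 15 regions (19.0%, against 18.6%). By place, 50 regions lay in introns of the 10 genes, 13 at their promoters, 4 at promoters of neighbouring genes and 12 in the flanks.

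To test the level of p-JUN itself, log2 summit folds of the 40433 regions called in all 4 libraries were compared with limma after median centring. No region differed at an adjusted p under 0.05 in either direction, 0% of all regions higher and 0% lower on stiff, and so none of the 56 regions in these windows. At an unadjusted p under 0.05 there were 3773 regions overall and 5 in these windows. The lowest adjusted p in the windows was 0.485. The differences in these windows ran from −0.37 to 0.31 with a median of −0.01 (27 of 56 higher on stiff) and a median SE of 0.12. The central 95% of all regions ran from −0.33 to 0.35 around a median of −0.01. For H3K4me3 none of 16098 regions passed, 0% in each direction, and none of 18 in these windows, whose differences ran from −0.17 to 0.12 with a median SE of 0.09. At an unadjusted p under 0.05 there were 1607 H3K4me3 regions overall.

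The fold divides a summit by a background estimated around it. When the fragments at the summit were compared in place of the fold, centred and fitted in the same way, p-JUN at 7 of the 56 regions passed an adjusted p of 0.05 by limma, 3 higher and 4 lower on stiff. Genome-wide 6.15% of regions were higher and 7.38% lower, so these shares are close to the background. The genome-wide count itself rested on the libraries used: it was 5470 regions with all 4, and 1596, 1415, 5323 and 4073 without soft replicate 1, soft replicate 2, stiff replicate 1 and stiff replicate 2. Without soft replicate 2 more regions were higher (974) than lower (441) on stiff. Fragments are given relative to the library's median over all shared regions, which was 82 and 70 fragments (soft) and 73 and 85 (stiff). Which of the measures is nearer to occupancy was not tested.

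The TGFBR3 intron region 145 kb into the gene (chr1:92206691-92207341), which holds the TEAD-type motif printed above, was at 1.39 and 1.37 times the library median on soft and at 2.00 and 2.38 on stiff. The log2 difference was 0.66 ± 0.12 (SE), with an adjusted p of 2.10e-05 by limma, and both stiff libraries lay above both soft ones. Leaving out each of the 4 libraries in turn gave 0.53 to 0.78, and it passed in 4 of 4 fits. It was the only 1 of the 7 to do so. By fold its difference was 0.27, with an adjusted p of 0.532 by limma.

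Of the other 6, TGFBR1 had the only receptor intron site besides it that was higher on stiff, 21.3 kb into the gene. It was at 0.62 and 0.59 on soft and 0.97 and 0.79 on stiff, a log2 difference of 0.54 ± 0.18, with an adjusted p of 0.0348 by limma. The third was an upstream site of LTBP2, at −6.22 kb from its start site. It was at 5.09 and 4.94 on soft and 5.89 and 5.75 on stiff, a difference of 0.22 ± 0.08 with an adjusted p of 0.0399 by limma. The matrices did not overlap at these sites, which the fit of these same values had picked. The LTBP2 site passed in none of the 4 fits that left out 1 library, and the TGFBR1 site only without stiff replicate 2.

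The 4 that were lower on stiff lay in TGFBR3, TGFBR2 and LTBP1. A second TGFBR3 intron site, 153 kb in, was at 1.52 and 1.49 on soft and 1.22 and 1.02 on stiff, a log2 difference of −0.43 ± 0.14. TGFBR2 82.7 kb in was at 1.94 and 2.11 against 1.70 and 1.44, a difference of −0.37 ± 0.12. The differences at the pair of strong LTBP1 sites were smaller. At 329 kb LTBP1 was at 5.48 and 5.77 on soft and 4.82 and 4.41 on stiff (−0.29 ± 0.08), and at 123 kb at 6.68 and 7.21 against 5.85 and 6.24 (−0.20 ± 0.07). The adjusted p by limma was 0.0249, 0.0226, 0.00604 and 0.0417 in the order given. With 1 library left out, the LTBP1 site at 329 kb passed in 2 of 4 fits (without soft replicate 1 and without stiff replicate 1) and the TGFBR3 and TGFBR2 sites only without stiff replicate 1. The LTBP1 site at 123 kb passed only without stiff replicate 2.

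**Figure D3:**
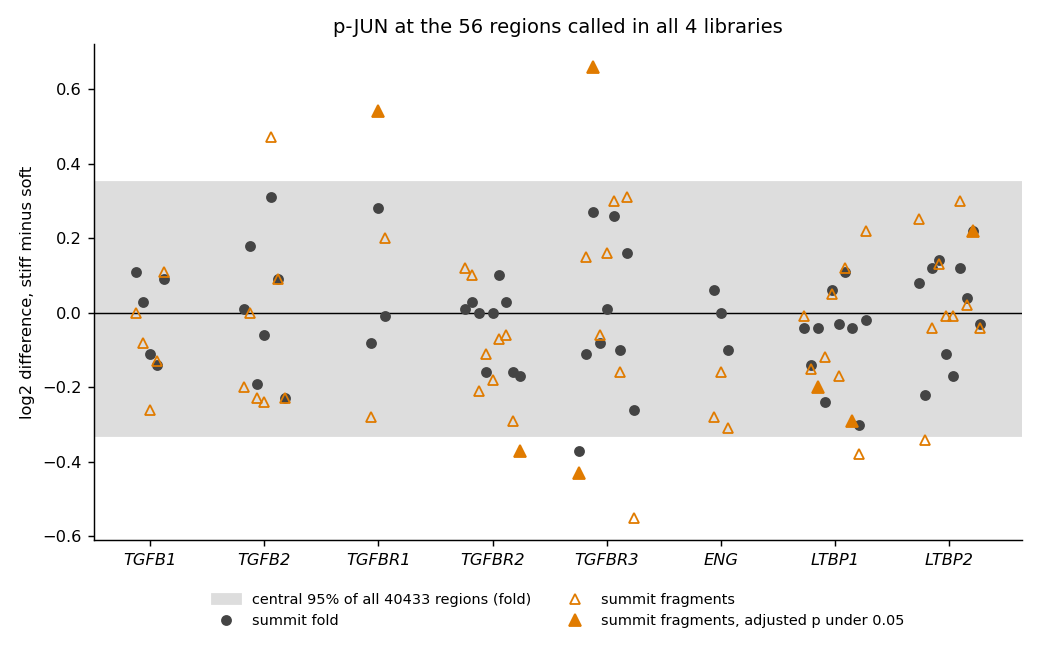
Log2 difference in p-JUN, stiff minus soft (vertical axis), at the 56 regions called in all 4 libraries, by gene, for the summit fold (grey points) and the summit fragments (triangles, filled where the adjusted p by limma was under 0.05). The fold differences lie between −0.37 and 0.31, almost all within the central 95% of all 40433 regions (grey band, −0.33 to 0.35), and 7 fragment differences are filled.

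**Figure D4:**
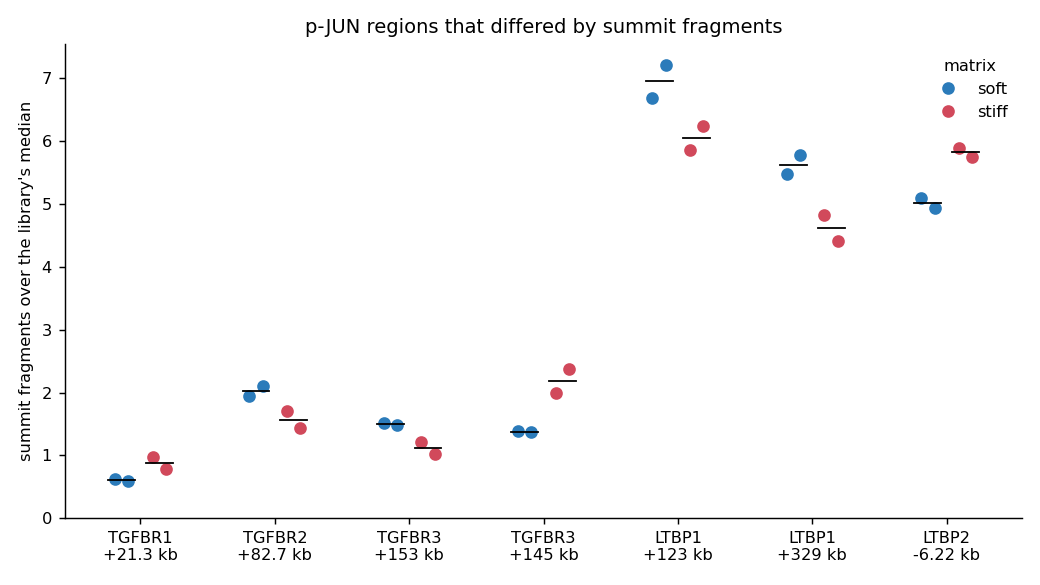
Summit fragments over the library's median (vertical axis, ratio) at the 7 p-JUN regions that passed by fragments, with 1 point per library (blue soft, red stiff) and a black line at the mean of 2. The soft and stiff points do not overlap at any of them, and TGFBR3 at 145 kb has the widest gap relative to its level (1.39 and 1.37 against 2.00 and 2.38). The regions were picked by the fit of these same values, so the gaps are not separate evidence.

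H3K4me3 by fragments passed at none of the 18 regions, against 2.25% higher and 2.14% lower of 16098. The lowest adjusted p by limma was 0.0502, at the internal LTBP1 start site 188 kb into the gene. Relative to the library medians it was at 0.29 and 0.33 on soft and 0.19 and 0.19 on stiff, a log2 difference of −0.69 ± 0.19, while its fold differed by 0.05. The TGFB2 promoter was at 1.10 and 1.28 on soft and 1.35 and 1.56 on stiff, a difference of 0.29 ± 0.10 with an adjusted p of 0.114 by limma. With 1 library left out that difference was 0.18 (soft replicate 1), 0.40 (soft replicate 2), 0.40 (stiff replicate 1) and 0.18 (stiff replicate 2). With the replicate number as a block it was 0.29, with an adjusted p of 0.130 by limma. At that promoter the H3K4me3 fragments were thus not lower on stiff, where the H3K27ac peak was not called.

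Other genes of the pathway were taken from a list of 33: 14 for latency and activation, 10 for other receptors of the superfamily and 9 for SMADs and their regulators. Of these, 30 had a p-JUN peak, and the stiff libraries lay above the soft ones at 1 and below at 1. That is no more than the 5.55% and 4.56% of all windows with a p-JUN peak. The gene above was FBN2, a fibrillin of the matrix fibres that hold LTBPs, with 9 and 9 against 10 and 11 peaks. The gene below was SMAD7, the inhibitory SMAD induced by TGF-beta, with 9 and 8 against 6 and 7. H3K4me3 had a peak at 31 of the 33. SMURF2, a ubiquitin ligase for receptors and SMADs, was above (3 and 2 against 4 and 5). BMPR2, a type II receptor for BMPs, was below (3 and 3 against 2 and 2). Of all windows with an H3K4me3 peak, 2.59% were above and 2.31% below. By H3K27ac, soft peaks outnumbered stiff ones at 12 of the 33 genes and were outnumbered at 3, with 68 soft and 48 stiff peaks in all. The other 18 genes had equal counts. Among these, ITGAV, ITGB8, LRRC32, ACVR1C, ACVR2A, ACVR2B, BMPR1B, BAMBI, SMAD2 and SKIL had no H3K27ac peak on either matrix. The genome-wide shares, 46.0% and 11.6%, are of windows with an H3K27ac peak. They leave out windows without one, so they are not on the same base as the 12 and 3 of 33. H3K27me3 was called in 8 of the 33 windows, among them FBN2, LRRC32 and NRROS, the last 2 being cell-surface anchors of latent TGF-beta in blood cells. Over all coding windows it was called in 34.6%.

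The genes whose windows most resembled that of LTBP1, which had the most p-JUN peaks of the 10 genes, were TSPAN5, NIN and CWC27. Their Euclidean distances over log2 counts plus 1 in the 14 lists were 0.383, 0.399 and 0.415. TSPAN5, the nearest, held 13 and 13 soft and 14 and 13 stiff p-JUN peaks, 2 H3K4me3 peaks in each library and 3 and 2 H3K27ac peaks.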

How the data were processed

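CUT&Tag peak lists of LX-2 cells were used: 2 libraries per matrix for p-JUN, H3K4me3 and H3K27me3, and 1 merged list per matrix for H3K27ac. Groups follow the treatment labels. The study states at least 2 biological replicates. Trim Galore, Bowtie2 (genome hg19) and, for duplicates, Picard were the authors' tools for the reads. The peak lists have the layout that MACS2 writes. The caller, its version and options, and any control for CUT&Tag are not given in the sources used here. The deposited values per peak were a ratio (the fold of the summit over local background), the −log10 p and −log10 q, and a score taken from −log10 q, which was not used. The H3K27me3 lists hold broad peaks without a summit. No library was scaled to another, and greater depth alone can raise the number of peaks.

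Gene bodies and start sites came from GENCODE release 44 lifted to GRCh37, and sequences from the GRCh37 genome. Overlapping peaks of the same mark (1 bp or more) formed a region, and a promoter was 1 kb on each side of a coding start site. Summit fragments are the whole number whose Poisson tail, given the deposited fold, matches the −log10 p. One was found for at least 99.89% of narrow peaks (relative error under 1e-04). Tests used limma 3.58.1 (R 4.3.3, lmFit, eBayes with trend) on log2 values centred on each library's median. Benjamini-Hochberg adjustment was over all regions called in all 4 libraries. The fit of folds was run on simulated data, and the fit of summit fragments was not. Intervals are at 95% and cover counting error only. Read totals were not analysed here. PECAM1, among the endothelial markers, was not analysed.

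The genes, lists and alternatives were chosen with earlier results of these data known. All 10 genes are named. The p-JUN regions named are the strongest of each gene called in all libraries, those past the threshold in a fit, and those called in every library of 1 matrix and none of the other (also for H3K27ac, at most 3 per gene). Sequences are of named regions with an AP-1 motif, without any overlap with an exon, in which the motif lies within the 61 bases. Alternatives tried were no flank, 50 kb flanks, a −log10 q of at least 10 (broad peaks 2), lists of equal length, stricter overlaps of 50%, a motif within 100 bp, each replicate left out, the replicate number as a block, quantile normalization and summit fragments. The fits of fragments with the block or without a replicate were added after seeing the data.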

Additional observations from a re-analysis of the deposited data

How the results depend on the processing

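The log2 ratio of p-JUN peaks over the 10 windows was 0.05 and stayed within the spread between libraries under every alternative, from −0.02 (equal list length) to 0.08 (no flank), and from −0.09 to 0.19 with 1 library left out. That of H3K4me3 was 0.15 at equal length and 0.07 to 0.14 with 1 library left out. The H3K27ac ratio was −0.09 at equal length, and −0.54 to −0.63 otherwise. At equal length TGFBR1 and ENG had more stiff peaks, and TGFB2, LTBP1 and LTBP2 more soft peaks. The H3K27me3 difference was −0.10 kb with 50 kb flanks, and 0.00 to 0.00 kb with 1 library left out. The p-JUN regions called in every library of 1 matrix alone numbered 3 with 50 kb flanks, 2 at equal length and 3 to 8 with 1 library left out, and those of H3K4me3 0 to 2. The AP-1 share was 46.8% within 100 bp (all p-JUN regions 41.2%) and 25% to 32.1% with 1 library left out. Windows that did not overlap numbered 0 for p-JUN at the stricter q and 1 for H3K4me3 at equal length (LTBP2). With 1 library left out they numbered 1 to 4 for p-JUN and 0 to 1 for H3K4me3.

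By summit fragments 7 p-JUN regions in the windows passed, and 1 to 5 with 1 library left out. For H3K4me3 it was 0 to 1 (0 without leaving one out). By fold none passed in any fit. The fold difference at LTBP1 123 kb into the gene, −0.04, changed sign in 2 fits, to 0.01 (soft replicate 2 left out) and to 0.03 (stiff replicate 1 left out). The cause of the difference between fold and fragments was not tested.

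Replicate numbers did not pair the libraries: deviations of same-numbered libraries correlated at 0.00 (p-JUN) and −0.05 (H3K4me3) over regions. With the replicate number as a block the log2 ratios of peaks were 0.05 and 0.11, the H3K27me3 difference 0.00 kb, 0 regions in the windows passed by fold for either mark (41 p-JUN regions genome-wide, against 0), and 7 p-JUN regions by fragments. A block has no effect on calls on 1 matrix alone, so no such value is given. H3K27ac had 1 list per matrix and no replicate check.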
